A study of Drosophila melanogaster with 36 samples.

Results

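A group of 47 probe sets differed between 2 founder lines of Drosophila melanogaster selected for opposite wing shapes, and their difference was small in all 4 pairs of lines that were reselected from hybrids of those founders. A probe set is the group of short array probes that reads one transcript. Line levels were means of log2 signal over 3 arrays. A member had a geometric mean signal of at least 259.6 units over the 36 arrays, a difference between founders H and L of at least 0.75 in size, and a high minus low difference under 0.4 in size in each reselected pair. Of 9385 probe sets tested, 700 had the founder difference. In 653 of these at least 1 pair kept a difference of 0.4 or more, and the other 47 (6.71%) are described here. The members were chosen by the H and L levels and the pair differences on these arrays, so those values are given as a description with no test.

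Affymetrix arrays read the RNA of wing discs, the larval precursors of the adult wing, from 12 lines with 3 arrays each. Lines H (high) and L (low) came from a wild Massachusetts sample through 20 generations of divergent selection and were then made isogenic. They were crossed into hybrid populations A to D, which mixed for 34 generations, were selected again in both directions for 25 and inbred for 10, giving the high lines A1 to D1 and the low lines A2 to D2. A high and a low California line came from a separate population, and all flies were raised at 20 °C on cornmeal agar. Discs were taken at a median of 6.2 h before pupariation, 100 were collected per tube, and cRNA was made from 5 µg of total RNA. Each line is a single selected or inbred line, and nothing in the labels says that its 3 arrays came from separate cultures, so p-values measure only the spread between arrays, which may be technical.

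When 2 isogenic lines are crossed and their descendants are mixed and inbred, a locus in each derived line tends to become fixed for the allele of one parent. A transcript whose level follows a nearby founder allele then has the level of one founder or the other in each line, whereas a transcript read out from several loci can take levels in between. In the wing disc, transporters, pumps, guidance receptors and transcription factors all act while the pouch and hinge take shape.

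Across the series, array medians ranged from 243.2 to 433.5 signal units, and 10th percentiles ranged from 22.4 to 54.1. The 4 wing disc markers on the array, vg, nub, ap and Dll, had a summed signal of 57454.2 to 66945.5 in the reselected lines, 63840.3 to 76409.1 in the founders and 59024.4 to 68868.4 in the California lines. None of the markers of 6 cell types was a member. The summed signal of 10 hemocyte (blood cell) markers was 6717.2 for H against 14348.9 for L. Within every reselected pair the high line also had the lower sum. High against low, the sums were 6783.0 against 9478.2 (A), 5464.1 against 8674.4 (B), 4506.5 against 11902.3 (C), 4510.3 against 9250.4 (D). The California high line summed to 9038.0, against 15134.4 for the low line. Of the 10 markers, NimC1 alone was higher in H, by 1.29 log2, while lz was level (H minus L -0.0018, mean signal 99.9). The 4 fat body markers on the array summed to 4151.0 in line C1 and 708.0 to 1609.8 in the other lines. The part of these cell types in the founder and reselected differences was not tested. In a whole disc, fewer cells of a type and less RNA per cell cannot be told apart. The reselected arrays carry title numbers 2467 to 2490, and the founder and California arrays 2525 to 2536, so reselection and this run of numbers cannot be told apart in any comparison of reselected lines with founders.

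Of the 47 members, 33 were higher in H and 14 were lower, and of the 653 others 363 were higher and 290 lower. This balance turned with the scaling. Applied to arrays centred on their medians, the rule gave 73 probe sets, 8 higher in H and 65 lower, and after quantile normalization it gave 66, with 25 higher and 41 lower. Median centring moved the median H minus L over all tested probe sets from 0.04 to -0.20. Their median founder difference was 0.89 log2 in size, against 1.06 for the 653 others and 0.19 over all probe sets tested. The H and L arrays did not overlap in 35 of 47 members (74.5%), in 88.2% of the 653 and in 38.3% of all tested probe sets; the choice on H minus L bears on the first 2 shares. Many members were dim. Their median log2 signal was 8.95, against 9.63 for the 653 and 11.51 over all tested, and 25 of 47 (53.2%) had a mean below 9. The median SD between arrays of a line was 0.36 log2 in the members, 0.33 in the 653 and 0.16 over all tested. A single gene symbol was available for 33 members, several symbols for 2 and none for 12.

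At the founder bound, the members just inside were Rpn13R with -0.75 and 2 unnamed probe sets with 0.76 and -0.77. PCB (-0.75), eIF3f2 (0.75) and CG31642 (0.75) lay just under it. At the pair bound, an unnamed probe set had 0.39 in pair D, another had 0.39 in pair B and Mco4 had -0.38 in pair B. CG33771 (0.41 in pair D), g (0.41 in pair B) and vrs (-0.42 in pair A) lay just outside.

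The level of each reselected line was placed on a scale on which L is 0 and H is 1. Levels within 0.25 of an end are called near that founder, and levels from 0.25 to 0.75 are called between. The mean of the 8 reselected lines was near H in 5 members, near L in 16, between in 25 and beyond L in 1. The lean toward L was not kept under median centring, which gave 14 near H, 12 near L and 17 between, and quantile normalization gave 10, 13 and 22. Of the 376 line levels, 62 (16.5%) were near H, 125 (33.2%) near L, 163 (43.4%) between and 26 (6.91%) beyond L. All 8 lines were near H in 2 members, CG12236 and CG12112. They were all near L in 2 members, Zip102B and CG6230, and all between in 1 unnamed member. The median position of the members was 0.335, and that of the 653 was 0.44, with 157 (24%) near L, 73 (11.2%) near H and 400 (61.3%) between. This difference between the groups was not tested.

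**Figure D1:**
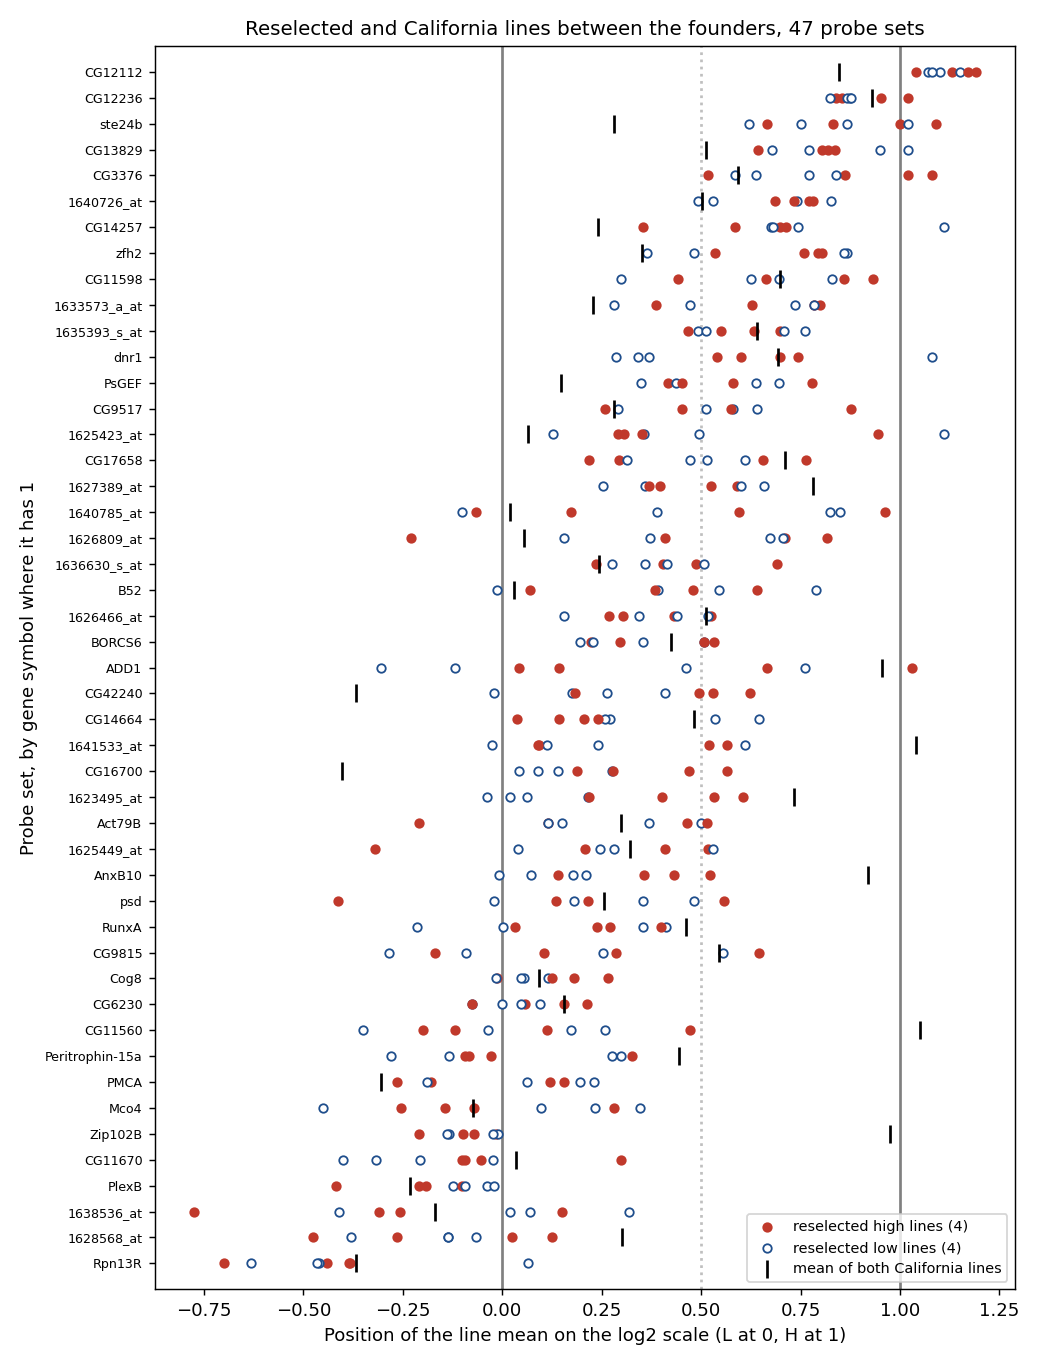
Position of each reselected line, and of the mean of both California lines, on the log2 scale from L (0) to H (1), with 1 row for each of the 47 members. The lines of CG12236 and CG12112 cluster at the H end, those of Zip102B, PMCA, PlexB, CG6230 and Cog8 cluster at the L end, and 25 members have a mean between 0.25 and 0.75.

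Whether the reselected lines lay to one side of the founder midpoint was tested with limma over all 9385 probe sets. The contrast was the mean of the 8 lines minus the mean of H and L. It is independent of the differences that chose the members only where H and L arrays spread equally. In some members 1 founder array moved both. Without H replicate 3, H minus L of Rpn13R went from -0.75 to -0.08 and its contrast from 0.695 to 0.36. At an adjusted p under 0.05, 14 of 47 members were called (29.8%), and 27.2% of all tested probe sets were. Of these, 3 were nearer H (9.01% of all tested were called that way) and 11 were nearer L (18.1%). The members' shares were 6.38% and 23.4%, and nothing particular to them is read from these. The median contrast was -0.05 log2 in the members and -0.02 over all tested. Centring each array on its median changed the balance to 12 nearer H and 9 nearer L, and quantile normalization to 6 and 10. Median centring also moved the median of this contrast over all tested probe sets from -0.02 to 0.31, so directions are relative to the deposited scaling. The 8 calls for Zip102B, PMCA, PlexB, CG6230, Cog8, AnxB10, CG12236 and CG12112 held in every alternative run.

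**Figure D2:**
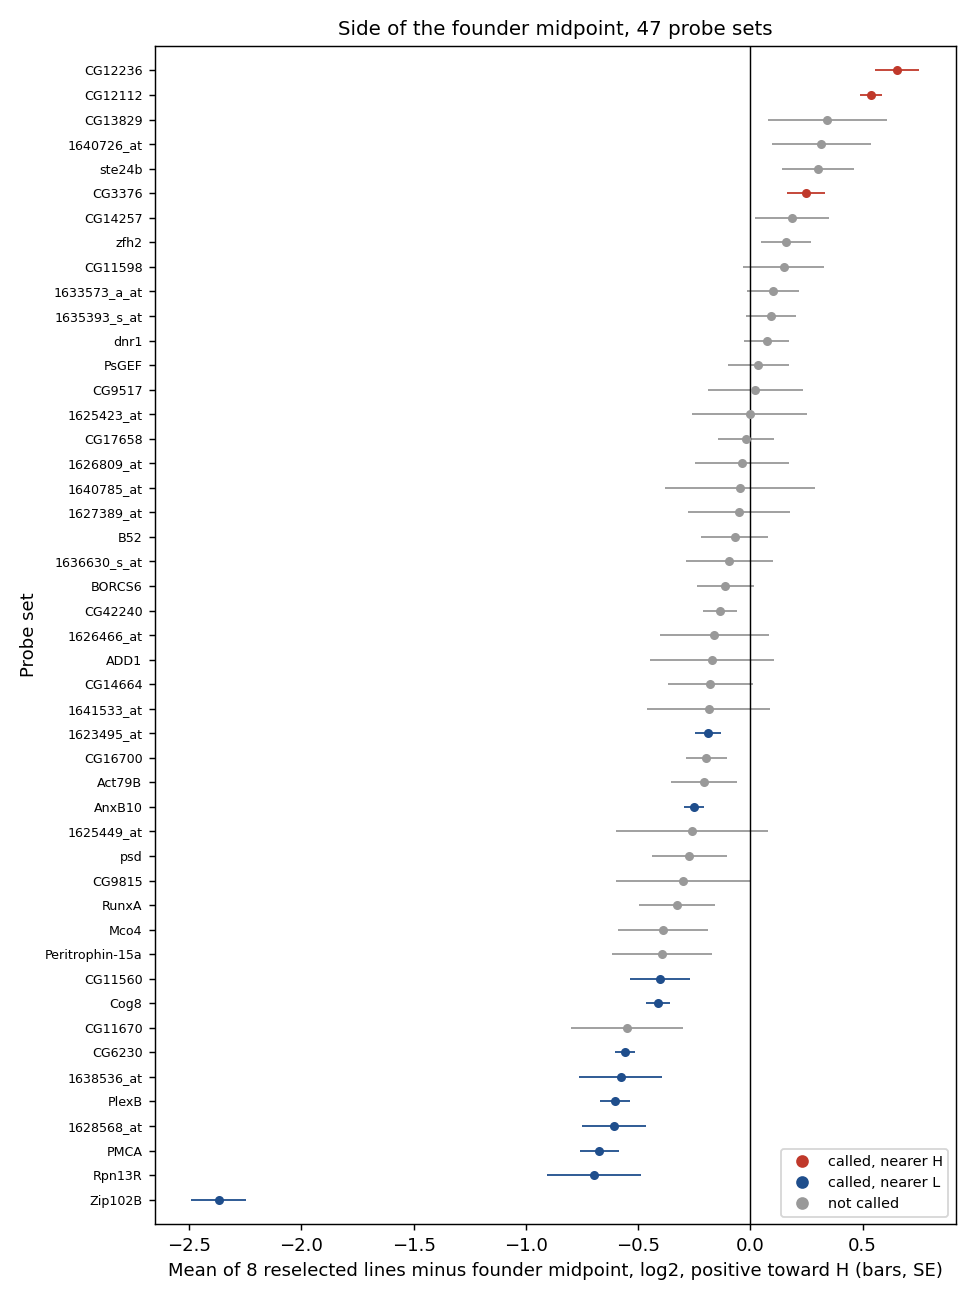
Mean of the 8 reselected lines minus the founder midpoint in log2, signed so that positive is toward H, for each of 47 members, with bars of 1 SE from the limma fit. Zip102B lies farthest toward L, and the 3 members called nearer H are CG12236, CG12112 and CG3376.

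Among the 47 members the largest founder difference belonged to Zip102B, a zinc transporter of the ZIP family. The H arrays read 12521.7, 13184.0 and 13304.8 signal units, and the L arrays read 994.7, 693.7 and 731.3. The 24 reselected arrays ran from 265.6 through a median of 630.6 to 931.1. All 24 lay below every H array and none lay above every L array, while 14 lay below every L array. H stood 16.3-fold above L, and the reselected lines sat with L or just under it. The mean of the 8 reselected lines was -2.37 ± 0.12 log2 (SE) from the midpoint (limma adjusted p = 9.1e-15). Here and below, the SE of such a mean rests on the spread between arrays of a line, with 3 arrays per reselected and founder line. It does not measure the spread among the 8 lines. The California lines read near H, at 11983.7 ± 1544.2 (SD, n = 3) in the high line and 12268.6 ± 909.1 in the low line.

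PMCA is the plasma membrane calcium pump. Its member probe set was lower in H, while its other tested probe sets had H minus L of 0.11 and -0.06. The H arrays of the member read 1452.7, 1069.9 and 1474.5, and the L arrays 3524.0, 3541.3 and 3316.1. The reselected arrays ran from 2381.9 through 3440.2 to 5162.9, all above H. The reselected mean was 0.67 ± 0.09 log2 above the midpoint (limma adjusted p = 1.71e-06), a position of 0.0162. The California lines read 4641.5 ± 361.3 and 4664.1 ± 613.9.

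PlexB, a plexin that acts as a receptor for semaphorin guidance cues, had H arrays of 4177.5, 3836.0 and 3920.9 and L arrays of 9267.8, 7254.1 and 6441.5. The reselected arrays ran from 6998.0 through 8230.4 to 11278.3, so none reached the H values. The reselected mean was 0.60 ± 0.07 log2 above the midpoint (limma adjusted p = 1.09e-07), and the mean of every line lay past the L end of the scale.

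CG6230 had H arrays of 4466.8, 4376.6 and 4046.4 and L arrays of 9367.2, 10389.9 and 10856.6. Its reselected arrays ran from 8205.9 through 9708.6 to 11692.0, again all above H. The reselected mean was 0.56 ± 0.04 log2 above the midpoint (limma adjusted p = 1.15e-10). Cog8, a subunit of the COG complex that tethers vesicles at the Golgi, had H arrays of 1612.3, 1669.4 and 1434.4, L arrays of 3227.8, 3220.2 and 3041.0, and reselected arrays from 2420.8 through 2994.1 to 3558.5. Its reselected mean was 0.41 ± 0.05 log2 above the midpoint (limma adjusted p = 2.75e-06).

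AnxB10, an annexin that binds membranes with calcium, read 6585.3, 5392.8 and 6439.8 in H and 11586.9, 11717.9 and 12141.1 in L. The reselected arrays ran from 8088.1 through 10320.0 to 13408.5. They lay above all H arrays, and 7 of the 8 lines were on the L side of the midpoint, with a mean 0.25 ± 0.04 log2 above it (limma adjusted p = 0.000174).

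**Figure D3:**
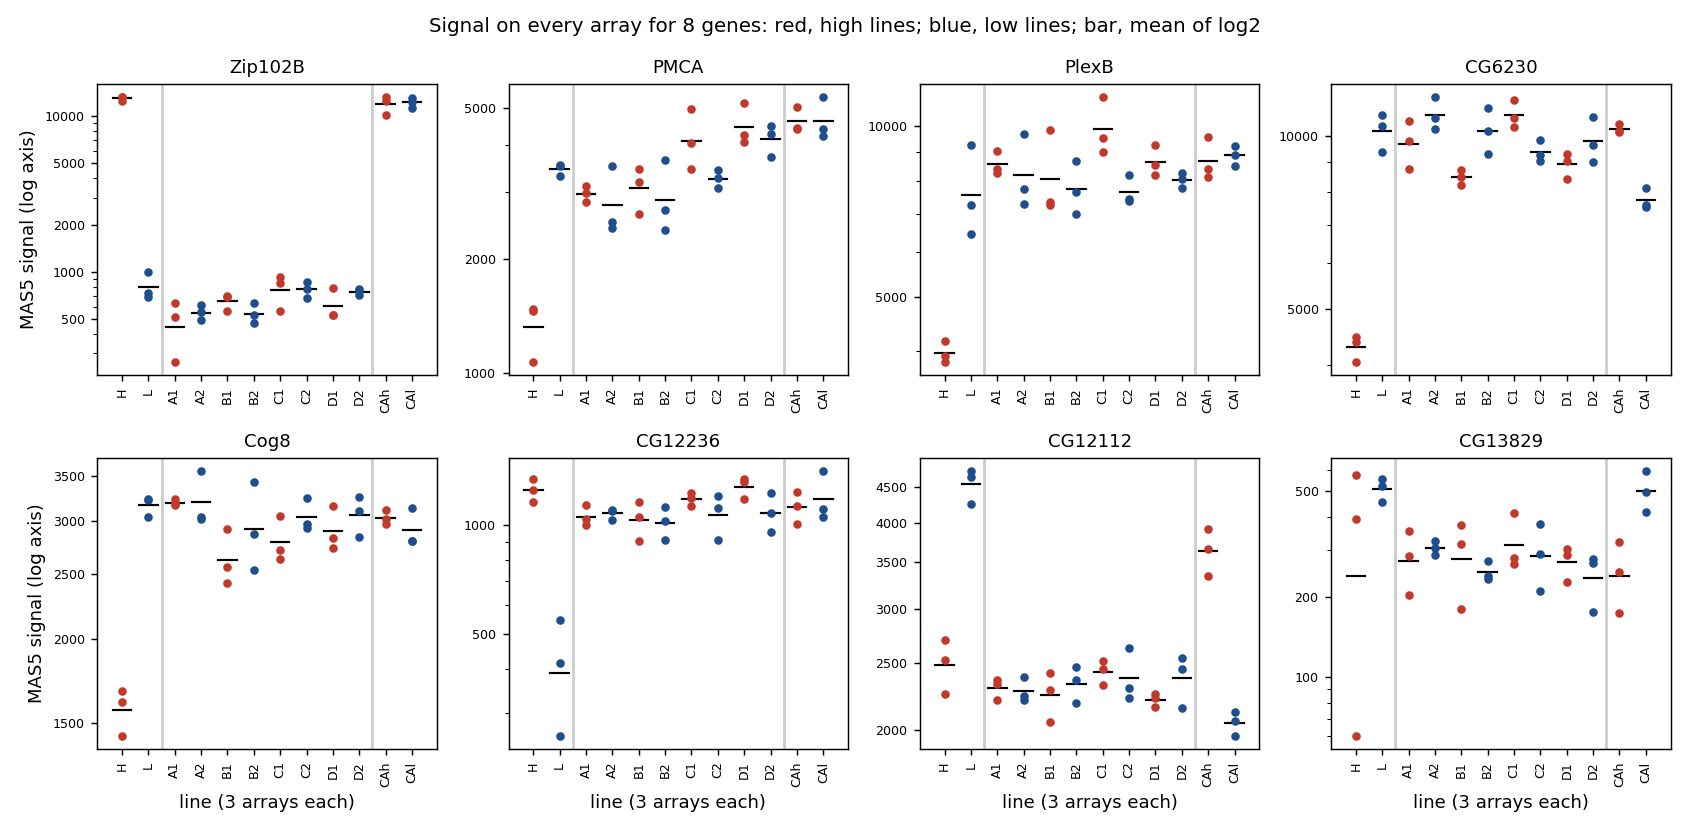
Signal on every array, on a log axis, for 8 members, with high lines in red, low lines in blue and bars at the mean of log2. In Zip102B the 24 reselected arrays lie with L or below it while the California arrays lie with H.

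The reselected lines lay with H at CG12236 and CG12112. At CG3376 their mean was called nearer H, with lines from 0.517 to 1.08 in position. For CG12236 the H arrays read 1257.8, 1348.8 and 1159.1 and the L arrays 414.1, 545.8 and 260.2. The reselected arrays ran from 906.1 through 1111.4 to 1341.9, all above L, and their mean was 0.65 ± 0.10 log2 above the midpoint (limma adjusted p = 1.59e-05). CG12112 was the reverse in sign, with H arrays of 2697.7, 2251.2 and 2527.8 and L arrays of 4259.5, 4656.5 and 4753.3. Its reselected arrays ran from 2054.8 through 2313.4 to 2629.4, all below L, and their mean was 0.54 ± 0.05 log2 below the midpoint (limma coefficient -0.54, adjusted p = 3.55e-09). CG3376 read 3297.4, 3042.8 and 2630.4 in H, 1573.8, 1952.6 and 1443.9 in L, and 1855.8 through 2609.9 to 3709.8 in the reselected arrays. Its mean was 0.25 ± 0.08 log2 above the midpoint (limma adjusted p = 0.0275), and this call was lost without H replicate 3, L replicate 1 or L replicate 3, with an adjusted p of up to 0.108.

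Other calls nearer L changed with the scaling or when single arrays were left out. CG11560 read 1614.5, 2324.3 and 1804.3 in H and 1147.6, 1108.3 and 872.8 in L, with reselected arrays from 654.1 through 1122.0 to 2244.9 and a mean -0.40 ± 0.13 log2 from the midpoint (limma adjusted p = 0.0263). The call was lost without H replicate 2, L replicate 1 or L replicate 2 (adjusted p up to 0.0977) and after median centring (0.682) and quantile normalization (0.0553). Rpn13R, which is related to a ubiquitin receptor of the proteasome, had overlapping founders, with H arrays of 476.8, 404.0 and 109.2 and L arrays of 423.5, 405.2 and 583.8. Its reselected mean lay beyond L at a position of -0.426 (limma adjusted p = 0.0148), and without H replicate 3 the founder difference was -0.08 and the adjusted p was 0.144. Of the unnamed probe sets, 3 were also called nearer L, with adjusted p values of 0.00249, 0.0216 and 0.0167. After median centring all 3 calls were lost, with adjusted p values of 0.0832, 0.253 and 0.0759. The second was also lost after quantile normalization (0.299) and without H replicate 1, L replicate 1 or L replicate 3 (up to 0.115), and the third without H replicate 1 (0.0956).

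Members without such a call included the transcription factors. zfh2, a zinc finger homeodomain factor of the proximal wing and hinge, read 2113.5, 1779.7 and 2267.1 in H and 4018.2, 3673.5 and 3494.7 in L. The reselected arrays ran from 1849.8 through 2374.6 to 3494.6, a mean position of 0.683 with 6 of 8 lines on the H side (limma adjusted p = 0.296). It was the 1 member in a list of 20 wing pouch, hinge and notum genes, of which 16 were tested with 23 probe sets and 2 had the founder difference. The other 17 lists of signalling, growth, detoxification, immune, cuticle and cell type genes held no member. RunxA, a Runt family transcription factor, read 935.1, 765.8 and 791.7 in H and 306.0, 454.9 and 473.9 in L. All 8 of its lines lay on the L side with a mean position of 0.186, without passing the test (adjusted p = 0.152).

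Several members lay close to the middle. CG17658 had a mean position of 0.48, CG9517 of 0.524, PsGEF (a guanine nucleotide exchange factor) of 0.544 and dnr1 (a ubiquitin ligase that restrains the Imd immune pathway) of 0.581. In CG17658 the lines ranged from 0.218 to 0.763 and split with 4 on each side. The splicing factor gene B52 had a mean position of 0.411, with lines from -0.0127 to 0.788.

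The founder difference of some members depended on 1 array. CG13829 read 575.1, 393.0 and 60.4 in H and 456.2, 556.3 and 520.0 in L, so the founders overlapped, and H replicate 3 was far below the others. Its position of 0.815, counted as near H, rests on that array. Without it the founder difference was -0.10, so CG13829 was no member, and the reselected mean of 8.10 log2 lay below both H (8.89) and L (8.99), -0.84 ± 0.19 from their midpoint (limma adjusted p = 0.00208). ADD1, a heterochromatin protein, read 85.7, 267.9 and 419.7 in H and 545.3, 370.2 and 415.9 in L. Its reselected lines ranged in position from -0.306 to 1.03 around a mean of 0.335, and without H replicate 1 its founder difference was -0.38. CG14257 read 249.6, 590.6 and 856.2 in L and 820.6, 1033.8 and 1098.9 in H, and its difference was 0.96 with all arrays and 0.46 without L replicate 1.

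The remaining named members with a mean near L were psd (an eggshell protein) at 0.187, CG9815 at 0.162, Mco4 (a multicopper oxidase) at 0.00466, Peritrophin-15a (a chitin-binding peritrophic protein) at 0.035 and CG11670 at -0.112. The H and L arrays overlapped in CG9815, Peritrophin-15a and CG11670. Their founder differences fell under the bound, to 0.40 without L replicate 3, 0.33 without L replicate 2 and 0.49 without H replicate 3, in that order. Between the founders lay CG14664 at 0.291, BORCS6 (a subunit of the lysosome-positioning BORC complex) at 0.356, CG42240 at 0.332, CG16700 at 0.256, Act79B (a muscle actin) at 0.252, CG11598 at 0.668 and CG14257 at 0.695. The ste24b prenyl protease gene lay near H at 0.857, with all 8 lines on the H side and no call (adjusted p = 0.159). Its founder arrays also overlapped, and its founder difference was 0.62 without L replicate 3. Of the 14 members without a single symbol, 3 lay near L and 11 between, at positions from 0.252 to 0.696.

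The 4 pair midpoints were compared with an F test in the same limma fit. This test is independent of the pair differences that chose the members only where both lines of a pair spread equally. The pairs differed in 5 of 47 members (10.6%), where 24.4% of all tested probe sets and 42.3% of the 653 were called. The median range of the midpoints was 0.35 log2 in the members, 0.55 in the 653 and 0.22 over all tested. PMCA had the lowest adjusted p, with midpoints of 11.49, 11.54, 11.84 and 12.07 log2 in A, B, C and D (adjusted p = 0.000306). Zip102B had midpoints of 8.94 in A, 9.21 in B, 9.58 in C and 9.39 in D (adjusted p = 0.0128), and that call was lost after median centring (0.0637) and quantile normalization (0.0619). AnxB10 midpoints were 13.36, 13.24, 13.43 and 13.18 (adjusted p = 0.00429). For dnr1 the midpoint was 10.12 in pair D and 9.70 to 9.77 in the others (adjusted p = 0.0301), and the call was lost in 4 fits that left out a D array, with an adjusted p of up to 0.0796, after median centring (0.111) and quantile normalization (0.122), and with no filter on low values (0.0619). CG42240 passed at 0.0478 and was lost in 24 of 36 fits that left out 1 array and in 4 of the 8 other alternatives. Without D1 replicate 1, or without D2 replicate 2, 3 members were called.

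**Figure D4:**
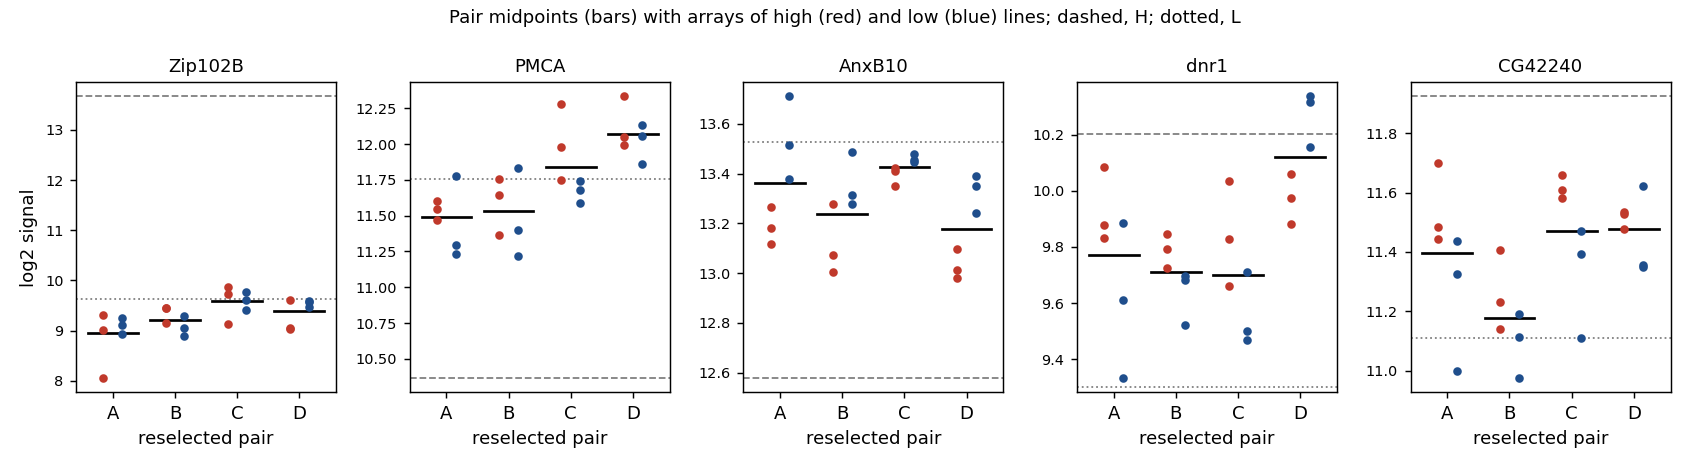
Log2 signal of the arrays of the 4 reselected pairs for the 5 members called by the F test, with bars at pair midpoints and lines at the H (dashed) and L (dotted) levels. PMCA runs from 11.49 in pair A to 12.07 in pair D, and its L level lies inside that range.

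The California lines were not used in the founder difference. Their high and low lines differed in 7 of 47 members (14.9%), against 17.0% of all tested and 28.9% of the 653. They were higher in the high line at 4 members (7.97% of all tested) and lower at 3 (9.05%). CG12112 read 3639.5 ± 288.4 in the high line and 2046.8 ± 79.9 in the low line (SD, n = 3), a difference of 0.83 ± 0.09 log2 (SE; limma adjusted p = 1.11e-08), while founder H was lower than L. CG6230 was higher by 0.41 ± 0.08 (adjusted p = 0.000174). For CG17658 the high minus low difference was -0.83 ± 0.22 (adjusted p = 0.00787). CG16700 (0.52, adjusted p = 0.027) and Mco4 (-1.12, adjusted p = 0.0297) passed but were lost when single California arrays were left out, with adjusted p up to 0.138 and 0.298. Both were also lost after median centring (0.053 and 0.0637) and with no filter on low values (0.0517 and 0.0564).

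Set against the founder midpoint, the California mean was called in 11 of 47 members (23.4%; 27.0% of all tested, 39.4% of the 653), nearer H in 5 (10.6% of all tested) and nearer L in 6 (16.4%). Zip102B lay 1.91 ± 0.15 log2 above the midpoint (limma adjusted p = 3.66e-11) and CG12236 0.72 ± 0.12 (4.04e-05), both toward H. PMCA (1.12 ± 0.11, adjusted p = 2.3e-09), PlexB (0.68 ± 0.08, 2.08e-07), CG16700 (-0.73 ± 0.12, 1.99e-05) and CG42240 (-0.71 ± 0.10, 1.21e-06) lay toward L. The reselected mean was near L and the California mean near H in 3 members, Zip102B, AnxB10 and CG11560. The California calls were lost for AnxB10 (0.0634) and CG12112 (0.372) after median centring, and for CG11560 in 7 of 36 fits that left out 1 array and with no filter on low values (0.058). Both means were near L in 6 members, near H in 2 and between in 12. The California mean can lie near a founder that neither California line is near. For Mco4, counted near L, the high line lay at -0.784 and the low line at 0.636. For CG12112, counted near H, they lay at 0.373 and 1.32. The comparisons with the reselected and the California lines share the founder arrays. The H arrays lay outside the range of the other 33 arrays in 9 members (2.82% of all tested), among them PMCA, CG6230, Cog8, PlexB, CG42240, CG16700 and BORCS6. The L arrays did so in 2 (0.629%), CG12236 and CG12112. Since H and L chose the members, nothing is read from these counts.

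Among 32 members that could be placed on a chromosome through the RefSeq gene table (assembly Release 6 plus ISO1 MT), 4 were on chromosome 4 (12.5%). That chromosome is small and largely lacks ordinary meiotic crossing over. It held 51 of 7839 placed tested probe sets (0.651%) and 10 of 530 placed founder differences (1.89%). Elsewhere 28 of 520 placed founder differences were members. The members on chromosome 4 were PlexB, Zip102B, PMCA and zfh2. The X chromosome held 9 members (28.1%) and 60 founder differences (11.3%), and 3L held 3 (9.38%) and 124 (23.4%). Of the placed tested probe sets, 1342 (17.1%) were on X and 1558 (19.9%) on 3L. No test was made of these shares.

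Zip102B and PMCA lie 2 genes apart, the only members within 5 genes of each other. Rnf11 lies between them and is no member. One of its probe sets read 5715.1 in L and 53.8 in H as line means. The H value lies at the upper end of the arrays' 10th percentiles, which ran from 22.4 to 54.1, so no fold is given for it. Pairs B and D kept differences of -2.35 and -2.83. In California it read 74.3 in the high line and 2348.3 in the low line. At the member probe sets of Zip102B and PMCA every reselected line was near L or just beyond it. For zfh2, on the same chromosome, 6 of 8 lines were on the H side.

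**Figure D5:**
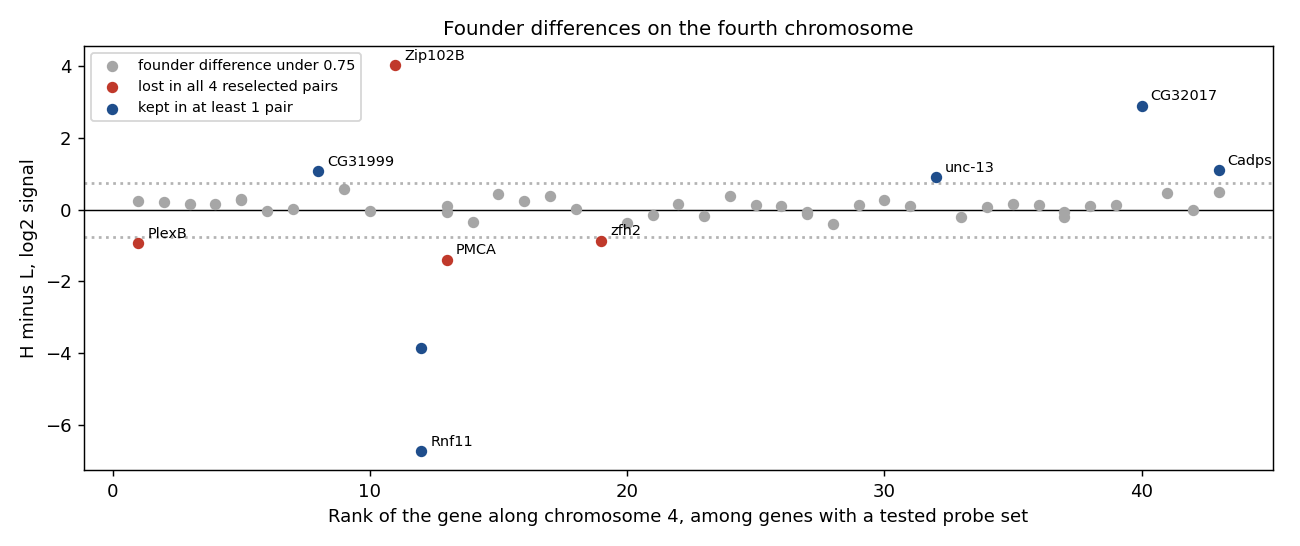
H minus L in log2 for each tested probe set on chromosome 4, by the rank of its gene along the chromosome, with dotted lines at 0.75 in either direction. The members PlexB, Zip102B, PMCA and zfh2 are in red, the 6 probe sets whose difference was kept in a pair are in blue, and the rest lie within the bounds; the Rnf11 points rest on H signals of 53.8 and 67.4, in the lowest part of the arrays' range.

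Other tested probe sets of member genes did not share the founder difference. For 5 genes, 9 other probe sets were tested, and none of them reached 0.75 in size. For CG12236 the other probe set read 1296.5 in H and 1402.7 in L, a difference of -0.11 where the member had 1.69. For PMCA the others had 0.11 and -0.06 where the member had -1.39, and for PlexB 0.24 where the member had -0.93. Those of ADD1 had 0.26 and 0.50 against -1.04, and those of B52 had -0.45, 0.02 and -0.24 against -0.79. Only 3 of the 9 had the sign of the member. In these 5 genes the founder difference was thus read by 1 of the tested probe sets. No probe sequence was used here.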

How the data were processed

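Wing disc RNA from 12 lines was hybridised to 36 Affymetrix arrays. The authors deposited MAS5 signals, linear intensities per probe set, per the submitters' processing notes; other processing steps are not given in the sources used here. After leaving out probe sets below the 2nd and above the 98th percentile of each array, the mean intensity in the deposited table was 2496.8 to 2498.6 on every array. Of 18952 probe sets, 183 controls were left out, and 9385 of 18769 had a geometric mean signal of at least 259.6 units and were tested. The number of arrays per line limits the precision.

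Signals were taken to log2 without a pseudocount. limma 3.58.1 in R 4.3.3 fitted 1 mean per line over all 36 arrays with an intensity trend (24 residual degrees of freedom), and p-values were adjusted by Benjamini-Hochberg over the 9385, with a threshold of 0.05. The fit was tested on simulated data. Genes were named from the platform annotation, and chromosomes from the RefSeq gene table. Named genes were those with the largest founder, reselected, pair midpoint and California values, those nearest the middle and the bounds, those in a gene list, and those with other probe sets or a close neighbour. Rnf11 and the remaining members were named after their values were seen. The members and the gene lists were chosen with earlier results of these data known. Alternatives were median centring, quantile normalization, a pseudocount of 29.4, other filters and bounds, no trend, a replicate block, only the 30 Massachusetts arrays, and leaving out each array.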

Additional observations from a re-analysis of the deposited data

Results flagged for a closer look

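Of the 47 members, 1 had a reselected line flagged as apart from the other 7. For Rpn13R, line C2 had a log2 signal of 8.81, while the others ran from 9.15 to 9.38. The gap divided by the range was 0.585, above the critical value of 0.526 for 8 values. Chance flags about 1 in 20 groups, and 47 were looked at. The rule bounded pair differences among these same lines, so the critical value is not exact here. Nothing is read from this flag.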

How the results depend on the processing

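The rule gave 73 members after median centring (22 shared with the 47, 8 of them higher in H), 66 after quantile normalization (37 shared), 51 with a pseudocount (42 shared), 14 with a founder bound of 1 and 18 with a pair bound of 0.3. Leaving out 1 array gave 41 to 80, with 80 without H replicate 2. Only 5 of the 47 met the rule in all 36 of these runs, and 34 of the 47 met it without L replicate 3. For the 47, members nearer H numbered 12 after median centring and 6 after quantile normalization, means near H 14 and 10, and means near L 12 and 13. With the scale from L to H split into 3 equal ranges, 9 were near H and 15 between. The F test called 2 after quantile normalization and 3 with no filter on low values. California high minus low called 4 after median centring and 4 with a mean log2 of at least 9. Leaving out 1 array gave 12 to 15 calls against the midpoint (2 to 3 nearer H, 9 to 12 nearer L), 3 to 7 for the F test, 5 to 8 for California high minus low and 10 to 13 for the California mean, and 5 to 6 near H, 15 to 19 near L and 21 to 26 between. The midpoint contrast of 1 unnamed probe set turned from -0.19 to 0.15 after median centring (adjusted p = 0.0759). The cause of these shifts was not tested. Same-numbered arrays of a pair had correlations from -0.064 to 0.188. These were not set against arrays of different numbers, so they do not show whether the numbers pair samples. A replicate block gave 14, 5, 7 and 12 calls in the 4 tests. Dim signals limit the precision for 25 of 47 members.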
